A study of Mus musculus with 9 samples.

Results

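The ephrin ligands are the 8 membrane-bound proteins that engage Eph receptor tyrosine kinases on neighbouring cells, and their transcripts were followed here in mouse embryonic stem cells (ESCs) carrying mutations of Rbbp4, a histone-binding subunit shared by several chromatin complexes. The members are the whole gene family, Efna1, Efna2, Efna3, Efna4, Efna5, Efnb1, Efnb2 and Efnb3, selected by symbol. No member was picked by its measured value, but the family was chosen with earlier results of these data known. All 8 were among the 25239 gene symbols of the count files, held at least 20 reads in every library and were among the 14125 genes that passed the filter on low counts. The study sequenced polyadenylated RNA from 3 lines of E14 ESCs (labelled strain 12910la), with 3 libraries each. The control line was Rbbp4+/+. The Rbbp4 Ins/Ins line carried a small in-frame insertion on both alleles of Rbbp4, and the Rbbp4 Ins/Del line carried that insertion on 1 allele and a small in-frame deletion on the other. All lines were grown in serum with leukemia inhibitory factor and received no treatment, and each mutant line was 1 CRISPR-Cas9 clone, so that genotype and clone cannot be told apart.

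A-type ephrins (Efna1 to Efna5) are held to the outer membrane by a glycosylphosphatidylinositol (GPI) anchor and bind mainly EphA receptors. B-type ephrins (Efnb1 to Efnb3) span the membrane, bind mainly EphB receptors and Epha4, and have a cytoplasmic tail with tyrosines and a PDZ-binding end. Contact between cells sends a forward signal through the receptor and a reverse signal through the ligand, which is known for guiding axons, keeping tissue boundaries and shaping blood vessels.

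The 9 libraries held between 15838064 and 21366868 counted reads. Rbbp4 itself was at 9932 to 10117 normalized counts in control, 5485 to 5776 in the Rbbp4 Ins/Ins line and 10129 to 10603 in the Rbbp4 Ins/Del line, where a normalized count is a read count scaled to a common library size. The alleles are small and in frame, so this level does not check the genotype labels. The summed level of 13 pluripotent cell markers was between 107836 and 112593 normalized counts in control and between 137306 and 140647 in the mutants, and none of these markers was at 0 in any line. The members were mixed. By the test described below, 8 of the 13 were higher in both mutant lines and 2, Dppa4 and Utf1, were lower in both. Over all tested genes these shares were 25.6% and 26.7%. The labels do not say whether the libraries of a line came from separate cultures, so p-values measure the spread between libraries, which may be technical. A bulk RNA library cannot tell fewer cells of a type from less RNA per cell.

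The sequence just before the transcription start is shown for the 4 ligands with an estimated fall of over 2-fold in both mutants. For comparison it is also shown for Efna2, which did not pass the test in either. Each line gives the 250 bases before the most upstream RefSeq start on GRCm38.p6, read 5′ to 3′ on the strand of the gene. Capitals mark a GC box (GGGCGG) or a CCAAT box on either strand.
Efna5: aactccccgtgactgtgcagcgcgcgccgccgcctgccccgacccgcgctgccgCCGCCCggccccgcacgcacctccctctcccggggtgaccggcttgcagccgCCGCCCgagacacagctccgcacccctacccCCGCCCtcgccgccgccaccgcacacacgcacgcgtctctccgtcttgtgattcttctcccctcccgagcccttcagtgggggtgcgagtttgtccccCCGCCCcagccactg
Efnb2: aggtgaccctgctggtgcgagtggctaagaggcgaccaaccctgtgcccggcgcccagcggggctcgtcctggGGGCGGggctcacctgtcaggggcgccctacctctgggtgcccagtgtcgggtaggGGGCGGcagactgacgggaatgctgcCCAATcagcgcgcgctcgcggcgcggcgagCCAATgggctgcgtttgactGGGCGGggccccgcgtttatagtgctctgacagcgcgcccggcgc
Efnb1: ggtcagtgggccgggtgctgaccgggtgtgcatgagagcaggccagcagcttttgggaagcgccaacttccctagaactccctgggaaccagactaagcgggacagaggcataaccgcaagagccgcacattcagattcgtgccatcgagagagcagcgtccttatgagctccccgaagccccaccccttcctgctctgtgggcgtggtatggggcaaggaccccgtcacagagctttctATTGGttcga
Efna3: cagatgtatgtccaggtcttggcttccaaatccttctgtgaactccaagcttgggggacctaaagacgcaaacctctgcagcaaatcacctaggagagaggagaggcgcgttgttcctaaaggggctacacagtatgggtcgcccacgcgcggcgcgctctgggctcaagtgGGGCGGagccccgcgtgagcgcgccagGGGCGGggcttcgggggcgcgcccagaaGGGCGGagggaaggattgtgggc
Efna2: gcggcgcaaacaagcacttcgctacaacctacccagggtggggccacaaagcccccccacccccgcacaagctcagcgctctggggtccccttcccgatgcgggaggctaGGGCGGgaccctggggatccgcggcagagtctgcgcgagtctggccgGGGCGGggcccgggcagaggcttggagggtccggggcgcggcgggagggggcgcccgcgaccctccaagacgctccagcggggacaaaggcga
These windows lie at chr17:62881318-62881567 on the minus strand for Efna5, chr8:8661243-8661492 on the minus strand for Efnb2, chrX:99135811-99136060 on the plus strand for Efnb1, chr3:89322940-89323189 on the minus strand for Efna3 and chr10:80179232-80179481 on the plus strand for Efna2. The Efna5 window was 74.8% G and C with 32 CpG dinucleotides and 4 GC boxes, and that of Efnb2 was 72.0% with 27 CpG dinucleotides, 3 GC boxes and 2 CCAAT boxes. The Efna3 window had 3 GC boxes and no CCAAT box, whereas the Efnb1 window had no GC box and 1 CCAAT box. The Efna2 window was as rich in G and C (73.6%) as those of Efna5 and Efnb2, with 2 GC boxes. GC boxes thus stood before Efna2 as well as before 3 of the 4 ligands with an estimated fall of over 2-fold. Of the 27025 genes with such a window, 32.96% held a GC box and 34.53% a CCAAT box, and the median was 52.0% G and C with 6 CpG dinucleotides. A window was given for 7 of the 8 ligands, and a match is a description of the letters and not a binding site.

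The main question was which ephrin ligands differed between the mutants and control. Compared with controls, 4 of the 8 ligands were lower in the Rbbp4 Ins/Ins line and 5 of 8 in the Rbbp4 Ins/Del line, and 0 were higher in either line (edgeR's quasi-likelihood test, Benjamini-Hochberg adjusted p of at most 0.01 over all tested genes). Over all tested genes, 29.4% were lower and 29.0% higher in the Rbbp4 Ins/Ins line, and 31.9% were lower and 30.6% higher in the Rbbp4 Ins/Del line. Efna3, Efna5, Efnb1 and Efnb2 were called lower with an estimated fall of more than 2-fold in both lines. These were 4 of 8 ligands, beside 8.10% of all tested genes. By the same rule 0 ligands were higher in both lines, beside 6.58% of all tested genes. In a test against a 2-fold change the count of lower ligands was 3 of 8, as Efna3 lost its call. The median log2 fold change of the 8 ligands was -0.73 in the Rbbp4 Ins/Ins line and -0.77 in the Rbbp4 Ins/Del line, beside 0.004 and -0.01 over all tested genes. Both comparisons use the same control libraries, so they are not independent of each other.

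**Figure D1:**
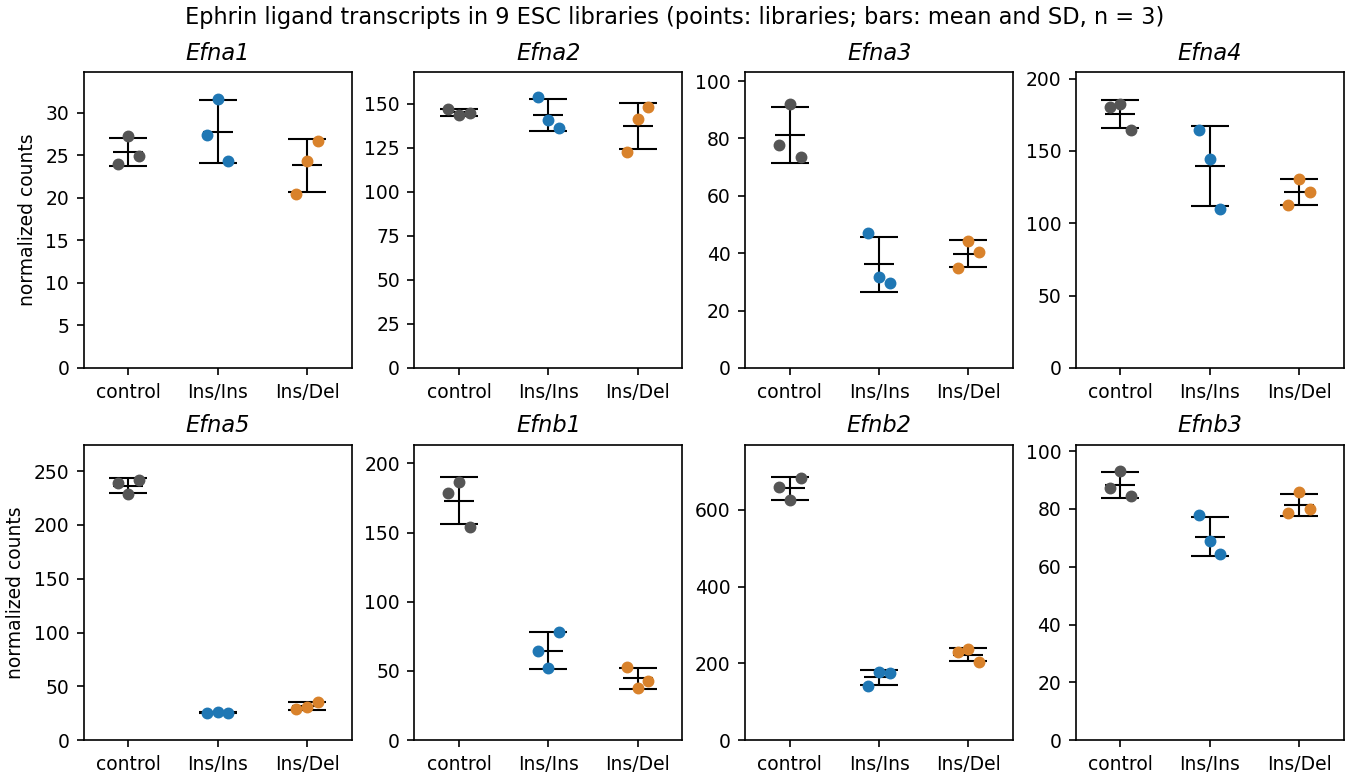
Normalized counts (y axis, from 0, with its own scale for each gene) of the 8 ephrin ligands in the control line and the mutant lines Rbbp4 Ins/Ins and Rbbp4 Ins/Del. Points are libraries, and bars are the mean and SD of 3 libraries. Efna5 dropped from about 236 to 25.4 and 31.7, while the 3 groups of Efna1 and of Efna2 overlapped.

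Among the GPI-anchored ligands, Efna5, a repulsive guidance cue for retinal axons, changed most. Its normalized counts were 239.4, 228.4 and 241.4 in the control libraries, 24.8, 26.0 and 25.4 in the Rbbp4 Ins/Ins line, and 28.6, 30.7 and 35.9 in the Rbbp4 Ins/Del line. Every mutant library lay far below every control library, and every Rbbp4 Ins/Del library lay slightly above every Rbbp4 Ins/Ins library. The mean fell from 236.4 ± 7.03 (SD, n = 3) to 25.4 ± 0.574 and 31.7 ± 3.73, so that it fell by 89.3% and dropped by 86.6%. The log2 fold change was -3.22 (SE 0.146, adjusted p = 1.42e-21) in the Rbbp4 Ins/Ins line and -2.90 (SE 0.140, adjusted p = 8.27e-21) in the Rbbp4 Ins/Del line. The gap between the mutants, 0.31 on the log2 scale with a 95% interval of -0.13 to 0.76, did not pass (adjusted p = 0.344). Efna5 lies at chr17:62604184-62881317 on the minus strand, a gene of 277.1 kb in GENCODE M21 on GRCm38.

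Efna3, another GPI-anchored ligand, had 77.8, 92.2 and 73.6 normalized counts in control, 47.0, 31.6 and 29.6 in the Rbbp4 Ins/Ins line, and 34.8, 44.2 and 40.5 in the Rbbp4 Ins/Del line. Control and mutant libraries did not overlap, and the mutants overlapped each other. The mean level was 81.2 ± 9.74 in control, 36.1 ± 9.55 in the Rbbp4 Ins/Ins line and 39.8 ± 4.76 in the Rbbp4 Ins/Del line (SD, n = 3). The log2 fold change was -1.14 (SE 0.188, adjusted p = 1.62e-06) and -1.02 (SE 0.185, adjusted p = 7.42e-06). A test against a 2-fold change did not keep the call (adjusted p = 0.648 and 1.0), so Efna3 was shown to be lower but not to be lower by more than 2-fold. An antisense transcript, Gm15998, overlaps 14.13% of the exonic length of Efna3 on the opposite strand, and the strand setting of the counting is not given in the sources used here, so its reads and those of Efna3 cannot be told apart there.

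Efna4, a GPI-anchored ligand that binds EphA receptors, lost less. Its normalized counts were 180.4, 182.3 and 164.6 in control, 164.2, 144.4 and 109.9 in the Rbbp4 Ins/Ins line, and 112.4, 130.8 and 121.5 in the Rbbp4 Ins/Del line. The highest Rbbp4 Ins/Ins library lay just below the lowest control library, and the Rbbp4 Ins/Ins libraries were spread over a wide range. The mean was 175.7 ± 9.72 in control, 139.5 ± 27.5 in the Rbbp4 Ins/Ins line and 121.6 ± 9.19 in the Rbbp4 Ins/Del line (SD, n = 3). The log2 fold change in the Rbbp4 Ins/Del line was -0.53 (SE 0.1202, adjusted p = 0.000177). In Rbbp4 Ins/Ins it was -0.32 (95% interval -0.56 to -0.09), which missed the threshold (adjusted p = 0.0146). With each library left out in turn it ran from -0.46 to -0.18. It passed only without Rbbp4 Ins/Ins replicate 1 (-0.46, adjusted p = 0.00216). The antisense transcript 4731419I09Rik overlaps 10.51% of its exonic length, with the same limit on its reads.

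Efna1 and Efna2 did not pass in either mutant. Efna1, first described as a cytokine-induced endothelial gene and a ligand of Epha2, had 23.9, 27.2 and 24.9 normalized counts in control, 27.4, 31.6 and 24.3 in the Rbbp4 Ins/Ins line, and 20.4, 24.4 and 26.6 in the Rbbp4 Ins/Del line. At this low level the 95% interval of its log2 fold change was wide, from -0.38 to 0.64 in the Rbbp4 Ins/Ins line and from -0.61 to 0.43 in the Rbbp4 Ins/Del line. Efna2, which guides axons in the visual system, had 147, 143.5 and 145 normalized counts in control, 154, 141 and 136 in the Rbbp4 Ins/Ins line, and 123, 142 and 148 in the Rbbp4 Ins/Del line. The 3 groups of both genes overlapped. The interval of Efna2 ran from -0.23 to 0.21 in the Rbbp4 Ins/Ins line and from -0.31 to 0.14 in the Rbbp4 Ins/Del line, which does not hold a fall of 2-fold.

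Among the transmembrane ligands, Efnb2, required for the growth of embryonic vessels and the partner of Ephb4, fell most in Rbbp4 Ins/Ins. Its normalized counts were 660.0, 625.4 and 684.2 in control, 142.0, 177.2 and 174.4 in the Rbbp4 Ins/Ins line, and 229.0, 236.4 and 203.6 in the Rbbp4 Ins/Del line. Both mutants were below control without overlap, and every Rbbp4 Ins/Del library lay above every Rbbp4 Ins/Ins library. The mean was 656.5 ± 29.6, 164.5 ± 19.6 and 223.0 ± 17.2 (SD, n = 3). The log2 fold change was -2.01 (SE 0.0816, adjusted p = 3.99e-23) in the Rbbp4 Ins/Ins line and -1.55 (SE 0.0772, adjusted p = 2.3e-20) in the Rbbp4 Ins/Del line. Efnb2 lies at chr8:8617434-8661242 on the minus strand.

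Efnb1, an X-linked ligand whose loss in people disturbs the skull sutures, had 178.7, 186.5 and 153.7 normalized counts in control, 64.2, 51.9 and 78.2 in the Rbbp4 Ins/Ins line, and 53.2, 37.9 and 42.8 in the Rbbp4 Ins/Del line. Both mutants lay below control without overlap, and they overlapped each other. The mean was 173 ± 17.1, 64.8 ± 13.2 and 44.6 ± 7.79 (SD, n = 3). The log2 fold change was -1.41 (SE 0.140, adjusted p = 2.14e-11) and -1.96 (SE 0.152, adjusted p = 2e-14). Efnb1 lies at chrX:99136130-99148991 on the plus strand.

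Efnb3, a midline barrier for growing axons of the spinal cord, had 87.2, 93.2 and 84.4 normalized counts in control, 77.8, 68.8 and 64.5 in the Rbbp4 Ins/Ins line, and 78.7, 85.7 and 79.8 in the Rbbp4 Ins/Del line. The Rbbp4 Ins/Ins libraries lay below control without overlap, and those of Rbbp4 Ins/Del overlapped control. Neither line passed: the log2 fold change was -0.32 (95% interval -0.61 to -0.03, adjusted p = 0.0496) in the Rbbp4 Ins/Ins line and -0.11 (95% interval -0.40 to 0.17, adjusted p = 0.48) in the Rbbp4 Ins/Del line.

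**Figure D2:**
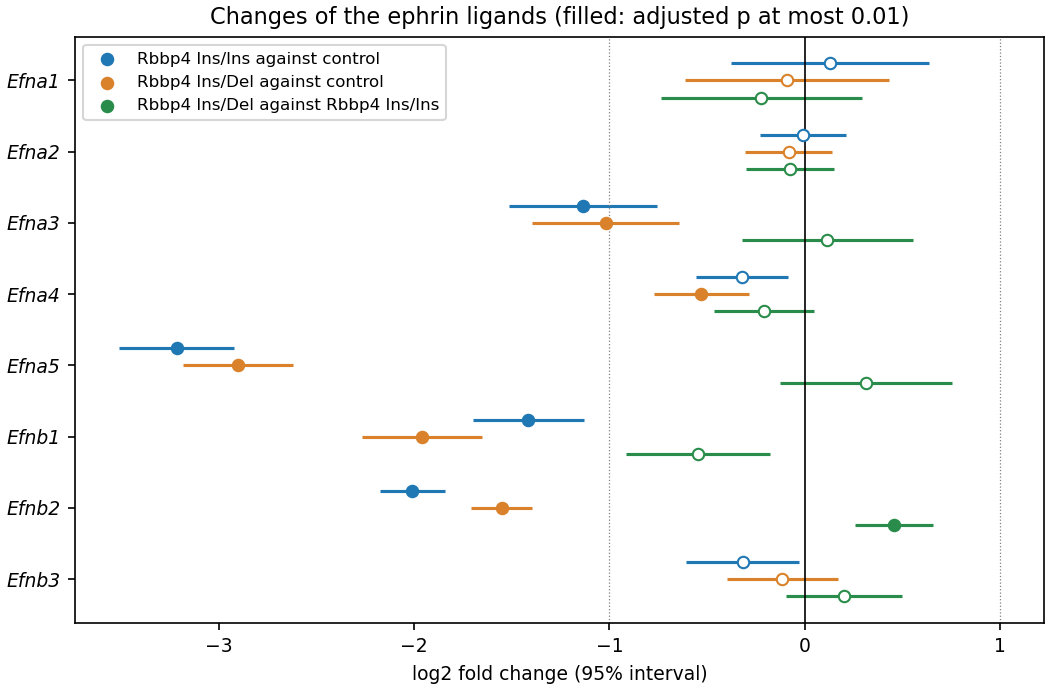
Log2 fold change (x axis) of each ligand (y axis) in the 3 comparisons, with the 95% interval as a line. Filled points passed an adjusted p of 0.01, and dotted lines mark a 2-fold change. Efna5 is farthest to the left, and Efnb2 alone has a filled point between the mutants.

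Whether the mutants differed from each other was tested directly. Efnb2 was higher in Rbbp4 Ins/Del than in the Rbbp4 Ins/Ins line by 0.46 on the log2 scale (SE 0.0975, 95% interval 0.26 to 0.66, adjusted p = 0.000665), 1 of 8 ligands where 6.17% of all tested genes were higher. It lost the call without Rbbp4 Ins/Ins replicate 1 (0.35, adjusted p = 0.0197) and without Rbbp4 Ins/Del replicate 2 (0.41, adjusted p = 0.0101). No ligand (0 of 8) was lower in the Rbbp4 Ins/Del line, where 4.64% of all tested genes were. Efnb1 came nearest, at -0.55 (95% interval -0.92 to -0.18, adjusted p = 0.031). The ratio of Efnb2 to Efnb1 normalized counts was 3.83 ± 0.561 in control, 2.62 ± 0.688 in the Rbbp4 Ins/Ins line and 5.10 ± 1.01 in the Rbbp4 Ins/Del line (SD, n = 3). The libraries gave 3.69, 3.35 and 4.45 in control and 2.21, 3.41 and 2.23 in the Rbbp4 Ins/Ins line. In the Rbbp4 Ins/Del line they gave 4.31, 6.24 and 4.76. The 2 mutants did not overlap in this ratio, while each overlapped control. The ratio was not a planned comparison. It restates the differences of Efnb2 (0.46) and Efnb1 (-0.55) between the mutants and is not a separate result.

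To compare the ligands with each other, normalized counts were divided by the exonic length of each gene. In control, the level per length was 109.9 ± 6.08 counts per kb for Efna4, 95.8 ± 4.32 for Efnb2, 68.1 ± 0.832 for Efna2, 58.6 ± 1.74 for Efna5, 50.1 ± 4.95 for Efnb1, 33.4 ± 4.0 for Efna3, 27.7 ± 1.41 for Efnb3 and 13.9 ± 0.927 for Efna1. The libraries of neighbours in this order did not overlap. The order of Efna4 and Efnb2 depends on the length used. By its longest transcript Efnb2 has 4793 bases instead of 6855, while Efna4 has 1599 by both measures. With the longest transcript Efnb2 thus stood above Efna4 in control. In both mutants Efna4 and Efna2 led, Efnb2 came after them, and Efna5 was last, at 6.29 counts per kb in the Rbbp4 Ins/Ins line and 7.87 in the Rbbp4 Ins/Del line. In Rbbp4 Ins/Ins the neighbours in the order overlapped except for Efna2 with Efnb2 and Efna3 with Efna5. In Rbbp4 Ins/Del the neighbours Efna3 and Efna1, and Efna1 and Efnb1, overlapped and the others did not.

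The summed level per length of the 8 ligands was 457.5 ± 10.5 counts per kb in control, 255.9 ± 23.1 in the Rbbp4 Ins/Ins line and 248.8 ± 13.3 in the Rbbp4 Ins/Del line (SD, n = 3), or 55.9% and 54.4% of control. The 5 A-type ligands kept 67.3% and 62.6% of their summed level, and the 3 B-type ligands kept 37.4% and 40.9%. The share of the B-type ligands in the sum was thus 37.95% in control, 25.55% in the Rbbp4 Ins/Ins line and 28.63% in the Rbbp4 Ins/Del line. Efnb2 made up 20.95% of the sum in control, and 9.49% and 13.1% in the mutants. Efna5 made up 12.8%, 2.47% and 3.16%, whereas Efna2 went from 14.9% to 26.4% and 25.9%.

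**Figure D3:**
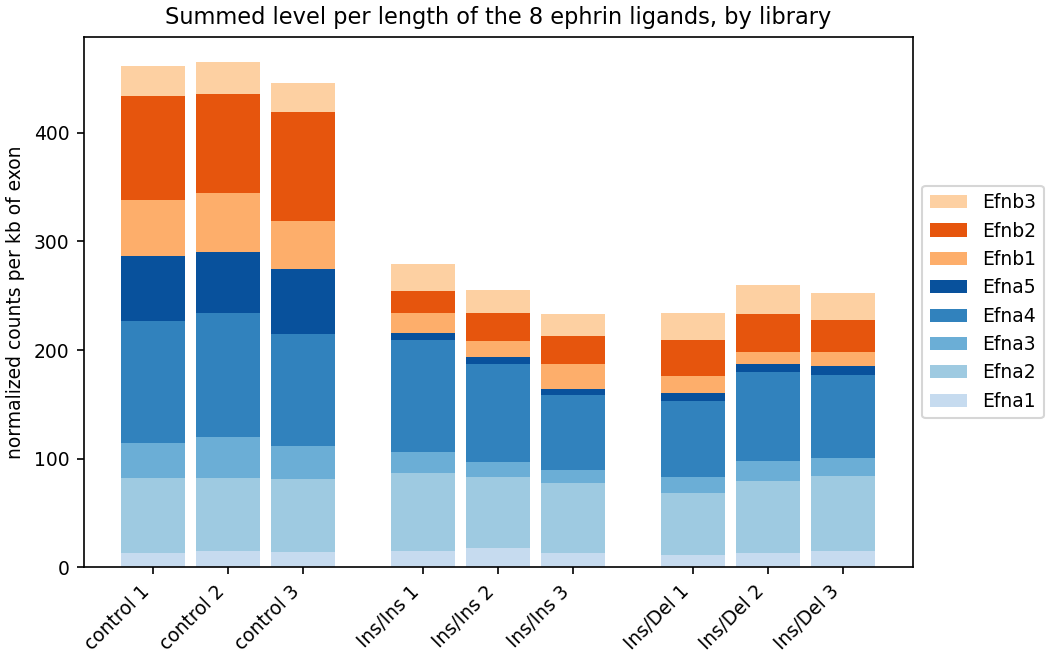
Stacked level per length (y axis, normalized counts per kb of exon) of the 8 ligands in each library (x axis), with A-type ligands in blue and B-type ligands in orange. The 3 control bars reach about 446 to 465 and the mutant bars 233 to 279, with the Efna5 and Efnb2 layers shrinking most.

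Efna1, Efna3 and Efna4 lie within 66.3 kb of each other on chromosome 3 (chr3:89271733-89338028), all on the minus strand, and they did not share a call: Efna3 was lower in both lines, Efna4 in 1, and Efna1 in neither. Adam15, a membrane metalloprotease 0.514 kb from Efna4, was higher in both (log2 fold change 0.53, adjusted p = 1.14e-06, and 0.60, adjusted p = 9.26e-08). Fbxl17, an F-box protein gene and the nearest tested gene on the upstream side of Efna5, 176.1 kb away, was lower in both (-0.92, adjusted p = 3e-11, and -0.91, adjusted p = 3.2e-11). Arglu1, 3.833 kb from Efnb2, passed in neither line. By Efnb1, Tmem28 was 672 kb away and lower in both (-1.16, adjusted p = 7.12e-14, and -1.62, adjusted p = 1.75e-17). Nearer to Efnb1, Stard8 at 61.4 kb (-0.46 and -0.90) and Pja1 at 316.7 kb (-0.51 and -0.65) were also lower in both. Yipf6, at 187.1 kb, passed in neither line. Of the 24 neighbours that are not ligands, 7 were lower and 3 higher in both mutants, where 26.7% and 25.6% of all tested genes were.

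The genes most alike in pattern were found by Pearson's r of log2 normalized counts over the 9 libraries, given as a description, since the points share their libraries and group means. Efna5 was most like Sulf1 (r = 0.999), Efnb2 most like Lrp11 (0.997), Efnb1 most like Mcoln3 (0.994) and Efna3 most like Rbpms2 (0.984). For Efna5 there were 1318 genes with r over 0.95, and for Efnb2 and Efnb1 773 and 741. No gene exceeded 0.95 for Efna1, Efna2 or Efnb3.

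The Eph receptors are what the ligands bind. Of 14 Eph receptors, 9 passed the filter on low counts (Epha3, Epha5, Epha6, Epha10 and Ephb1 did not). In Rbbp4 Ins/Ins, 5 were lower and 3 higher, and in the Rbbp4 Ins/Del line, 4 were lower and 2 higher. Over all tested genes the shares were 29.4% lower and 29.0% higher, and 31.9% lower and 30.6% higher, so the receptors' higher calls (33.3% and 22.2% of the 9) were near or below the background. The median log2 fold change of the 9 receptors was -0.42 in the Rbbp4 Ins/Ins line and -0.28 in the Rbbp4 Ins/Del line. Ephb4, the receptor of Efnb2 in vessels, fell from 977.1 ± 42.04 normalized counts to 450.3 ± 2.80 and 389.6 ± 30.2 (log2 fold change -1.12, adjusted p = 1.53e-19, and -1.33, adjusted p = 1.16e-21). Epha7, which binds Efna5, fell from 142.9 ± 11.4 to 36.2 ± 5.85 and 35.3 ± 4.93 (-1.98, adjusted p = 5.26e-14, and -2.03, adjusted p = 2.76e-14).

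Epha1 (log2 fold change -1.71 and -1.94) and Epha8 (-1.50 and -1.07) were lower in both. Epha4, which binds ligands of both types, rose from 975.1 ± 21.9 normalized counts in control to 2828 ± 52.3 and 3708 ± 23.4 (log2 fold change 1.54, adjusted p = 2.43e-30, and 1.93, adjusted p = 7.98e-34). The Epha4 libraries of the 3 lines did not overlap. Epha2, the EphA receptor with the highest level per length in control, was at 1134 ± 60.3 counts per kb in control, 951.2 ± 25.1 in the Rbbp4 Ins/Ins line and 1113 ± 64.7 in the Rbbp4 Ins/Del line. Its log2 fold change was -0.25 (adjusted p = 1.17e-07) in the Rbbp4 Ins/Ins line and -0.03 (adjusted p = 0.519) in the Rbbp4 Ins/Del line. Between the mutants 2 of the 9 receptors were higher in the Rbbp4 Ins/Del line, where 6.17% of all tested genes were, Epha4 (0.39, adjusted p = 8.88e-12) and Epha2 (0.23, adjusted p = 1.32e-05).

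**Figure D4:**
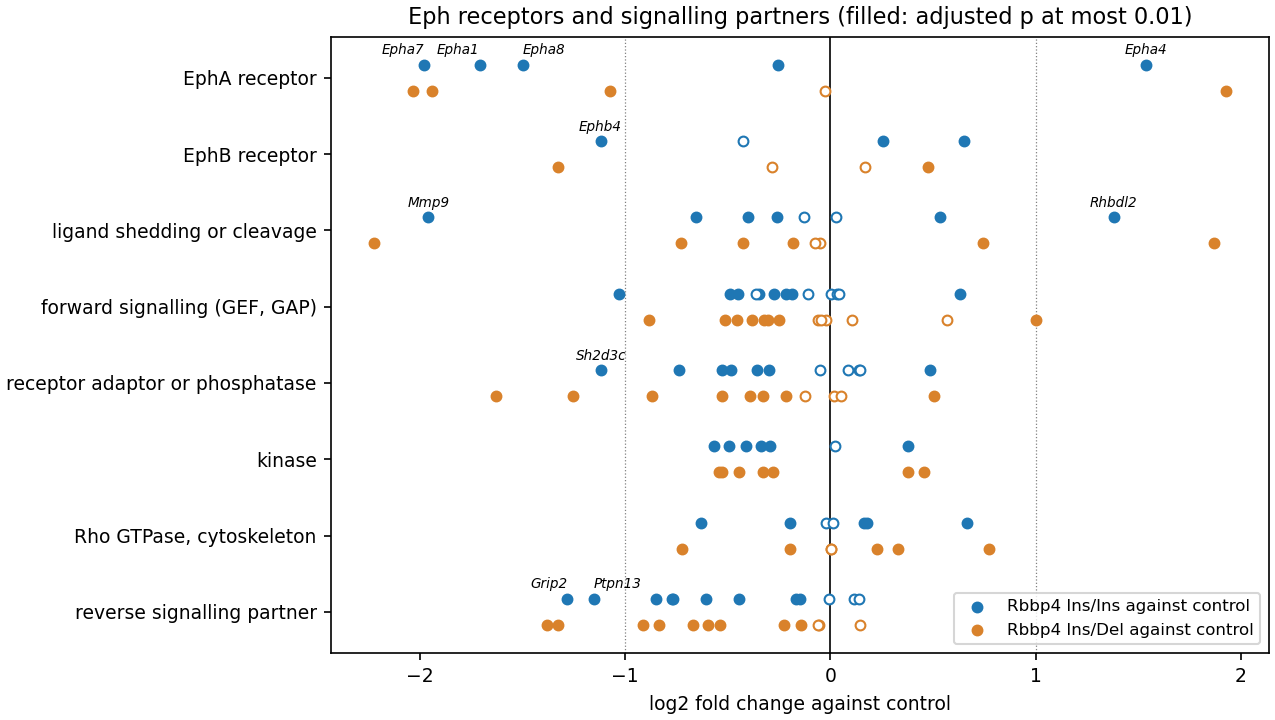
Log2 fold change against control (x axis) of the 9 tested Eph receptors and 58 signalling partners, grouped by role (y axis), in the Rbbp4 Ins/Ins line (blue) and Rbbp4 Ins/Del (orange). Filled points passed an adjusted p of 0.01, and dotted lines mark a 2-fold change. Named genes were called with an estimated change over 2-fold in both lines. Epha4 lies farthest right among the receptors and Mmp9 farthest left among the partners.

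A list of 58 partners that cleave the ligands or carry the signal was tested in full. In Rbbp4 Ins/Ins 33 were lower and 8 higher, and in the Rbbp4 Ins/Del line 34 were lower and 9 higher, with a median log2 fold change of -0.24 in both. The lower calls were 56.9% and 58.6% of the partners, beside 29.4% and 31.9% of all tested genes, and the higher calls 13.8% and 15.5%, beside 29.0% and 30.6%. Among the proteins that cleave or shed ephrins, Mmp9, a secreted gelatinase, fell from 55.7 to 14.3 and 12.2 normalized counts (log2 fold change -1.96 and -2.22, adjusted p = 1.24e-08 and 1.61e-09). Rhbdl2, an intramembrane protease that cleaves B-type ephrins, rose from 12.3 to 32.4 and 44.6 (1.38 and 1.87, adjusted p = 0.000124 and 2.74e-07). Rhbdl2 held only 9 to 15 reads in the control libraries, and Mmp9 only 8 to 18 in the mutant libraries. Adam10, which sheds A-type ephrins bound to their receptors, rose from 797.5 to 1156 and 1339 (0.53 and 0.75, adjusted p = 1.02e-12 and 2.6e-17). Of 12 partners of reverse signalling by B-type ligands, 8 were lower in both lines and 0 were higher, where 26.7% and 25.6% of all tested genes were.

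Among the partners of reverse signalling, Grip2, a PDZ scaffold, had log2 fold changes of -1.28 and -1.38, and Ptpn13, a PDZ-domain phosphatase that acts on B-type tails, had -1.15 and -1.33. Grip2 held only 12 to 22 reads in the mutant libraries. Of the receptor adaptors, Sh2d3c had -1.12 and -1.63. Between the mutants, 5 of the 58 partners passed (1.72% lower and 6.90% higher, beside 4.64% and 6.17% of all tested genes), and these were chosen for naming after their values were seen: Grb10 was lower in the Rbbp4 Ins/Del line (-0.77), and Adam10 (0.21), Kalrn (0.37), Lyn (0.44) and Cfl1 (0.16) were higher. Kalrn passed at an adjusted p of 0.00551 and Lyn at 0.00881, and both lost the call when DESeq2 was used (0.0269 and 0.0418). Kalrn also lost it without Rbbp4 Ins/Ins replicate 1 or 2 or any 1 of the Rbbp4 Ins/Del libraries (adjusted p = 0.0126 to 0.0365), and Lyn without any 1 of the 6 mutant libraries (adjusted p = 0.0119 to 0.063).

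Markers of other cell types and states were also followed. Counts of markers called in both lines stand beside 26.7% lower and 25.6% higher over all tested genes. In lists of 6 to 8 tested genes, the trophectoderm and endothelial counts were not far from these shares. The summed level of 6 primed epiblast markers was 16249 to 16923 normalized counts in control. It was 6536 to 6741 in the Rbbp4 Ins/Ins line and 6641 to 6884 in the Rbbp4 Ins/Del line. Most of it came from Dnmt3b (10335, 4271 and 4540), and 6 of 6 were lower in both lines. The summed level of 9 mesenchymal and feeder cell markers was 3443 to 3745 in control and 392.7 to 486.0 in the mutants. Most of the control sum came from Tagln (1994) and Acta2 (863.4). Of the 8 tested, 7 were lower and 1 was higher in both, with Fap at 0 in every control library. The 8 neural progenitor markers summed to 3797 to 3894 in control and 1505 to 1861 in the mutants, and of the 6 tested 4 were lower and 1 was higher in both. The 8 trophectoderm markers summed to 4907 to 5378 in control and 1828 to 2837 in the mutants. Of the 7 tested 3 were lower and 1 was higher in both. Most of the control sum came from Krt8 (1504) and Krt18 (2091). Tfap2c was higher in the Rbbp4 Ins/Ins line (log2 fold change 0.48) and lower in the Rbbp4 Ins/Del line (-0.21). The 8 endothelial markers summed to 684.8 to 717.8 in control and 915.2 to 1037 in the mutants, with Emcn at 0 in both, but the members were mixed. Of the 6 tested, Tek was higher in both lines (321.1 normalized counts in control, 792.8 and 851.8 in the mutants) and made up most of the sum in the mutants, whereas Flt1 (283.2, then 36.1 and 19.1) and Tie1 (22.4, then 7.50 and 8.20) were lower in both. Primitive endoderm markers summed to 1725 to 1854 in control, 1686 to 1815 in the Rbbp4 Ins/Ins line and 2332 to 2352 in the Rbbp4 Ins/Del line, most of it from Lama1 (1398, 1484 and 2013). Of the 7 tested, 1 was higher and 2 were lower in the Rbbp4 Ins/Ins line. In the Rbbp4 Ins/Del line 5 were higher and 2 lower. Over all tested genes 29.0% were higher and 29.4% lower in the Rbbp4 Ins/Ins line, and 30.6% and 31.9% in the Rbbp4 Ins/Del line. Dab2 (log2 fold change -1.35 and -1.29) and Gata4 (-1.56 and -1.05) were lower in both lines, and Sox7 (1.63 and 2.22) was higher in both. Counts were low for Gata4 (13 to 60 reads a library) and for Sox7 in control (13 to 33 reads). Gata6 (1.14), Sox17 (1.15) and Pdgfra (0.89), all at low counts, were higher in the Rbbp4 Ins/Del line only, as was Lama1. The part of these cell types and states in the ligand changes was not tested.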

How the data were processed

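RNA-seq libraries of 3 ESC lines, 3 each, were analysed. The authors aligned reads to mm10 with STAR 2.7.3 and deposited raw counts per gene symbol made with HTSeq, and tested them with DESeq2 1.22.2, per the labels. The HTSeq version, annotation and strand setting are not given in the sources used here. Groups came from the genotype labels. edgeR 4.0.16 in R 4.3.3 fitted its quasi-likelihood model to all 9 libraries with TMM factors and filterByExpr (minimum count 10), with no covariate. Adjustment was by Benjamini-Hochberg over 14125 genes, with calls at 0.01. Standard errors were taken as the size of the log2 fold change over the root of F. Replicate numbers did not pair libraries (r between -0.0277 and 0.0559 over 9 same-numbered pairs), and no replicates agreed within sampling noise. The fit was tested on simulated data. Alternatives were other normalizations, DESeq2 1.42.0, no filter, only the groups compared, the replicate block, a test against a 2-fold change, a threshold of 0.05, each library left out and the length of the longest transcript. Positions came from GENCODE M21 on GRCm38, promoters from RefSeq, and tables were made with Python 3.11.15.

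Named genes were all ligands, the receptor of each class with the highest level per length, and Rbbp4. Pathway genes called with an estimated change over 2-fold in both mutants were also named where their mean normalized count exceeded 20. The 2 nearest tested genes on each side, and the most alike gene, were found for every ligand but named only in part. The named neighbours, most alike genes and cell type markers, Adam10 and the genes that differed between mutants were chosen after their values were seen. The members and lists were chosen with earlier results of these data known. Intervals and p-values cover the spread between libraries only.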

Additional observations from a re-analysis of the deposited data

Results flagged for a closer look

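Each of these genes differed between the mutants by the direct test of edgeR (Benjamini-Hochberg adjusted), and the values are log2 differences of Rbbp4 Ins/Del from Rbbp4 Ins/Ins. Among the ligands, Efnb2 was higher by 0.46. Among the receptors, Epha4 was higher by 0.39 and Epha2 by 0.23. Among the partners, Adam10 was higher by 0.21, Kalrn by 0.37, Lyn by 0.44 and Cfl1 by 0.16, and Grb10 was at -0.77. Groups of 3 libraries were too small for a test of single libraries that stand apart.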

How the results depend on the processing

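Of 408 ligand log2 fold changes under 17 alternatives, 392 kept their direction and side of the threshold, 6 lost and 4 gained the call, and 6 changed sign. Efna5, Efnb1 and Efnb2 kept their calls against control in all of them. With a test against a 2-fold change, Efna3 and Efna4 lost theirs, leaving 3 ligands in Rbbp4 Ins/Del, 3 receptors in Rbbp4 Ins/Ins, 2 and 5 partners, 8.75% and 11.1% of all genes, and 0 ligands, 0 receptors, 0 partners and 0.0% of genes between the mutants. At a threshold of 0.05, 2 ligands, 4 receptors, 11 partners and 19.0% of genes differed between the mutants. DESeq2 gave 3 partners there. Of the pathway genes named for an estimated change over 2-fold, Epha8 and Grip2 lost the call in both lines in the test against a 2-fold change. Ephb4, Rhbdl2 and Sh2d3c lost it in the Rbbp4 Ins/Ins line. These were shown to differ from control there, but not by more than 2-fold.

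Leaving out a library gave 0 to 1 ligands, 3 to 6 partners and 6.89% to 11.5% of genes between the mutants. The count of ligands called with an estimated fall over 2-fold in both lines was 4. It was 3 without control replicate 2 and without Rbbp4 Ins/Del replicate 1. The log2 difference crossed 0 for genes that were not called: Efna1 in Rbbp4 Ins/Del (-0.16 to 0.0071), Efna2 in Rbbp4 Ins/Ins (-0.055 to 0.030), Epha2 in Rbbp4 Ins/Del (-0.067 to 0.016) and, between the mutants, Efna2 (-0.12 to 0.0021), Efna3 (-0.0090 to 0.39), Epha7 (-0.17 to 0.045), Grip2 (-0.35 to 0.042) and Mmp9 (-0.49 to 0.033). With the replicate block, 4, 5 and 1 ligands were called in the 3 comparisons, and of the named genes only Lyn changed, losing its call (0.43, adjusted p = 0.0106). With the length of the longest transcript, the summed level was 504.4 counts per kb in control and 265.7 in Rbbp4 Ins/Del. The Efnb2 share was then 27.18%, 12.86% and 17.54%, and Efnb2 stood above Efna4 in control. Efna1, at 20 to 32 reads a library, is limited by depth. The causes of these changes were not tested.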
